A study of Homo sapiens with 18 samples.

Results

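CCN1, CCN2 and CCN3, which encode secreted matricellular proteins, were followed together with ANKRD1, AMOTL2, AJUBA and LATS2, genes of the YAP and Hippo pathway, in human cells exposed to bacterial flagellin. The 7 genes were chosen by their symbols with earlier results of the same arrays known. They were named from the platform's annotation, which lists CCN1, CCN2 and CCN3 as CYR61, CTGF and NOV. Each had 1 row with a single symbol, and all 7 were among the 16111 genes tested.

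RNA came from HEK293, a line of human embryonic kidney cells. In all groups, controls included, the cells overexpressed murine TLR5, the receptor for flagellin. They were treated for 60 or 120 min with a mock control or with flagellin isolated from 1 of 2 bacteria, the pathogen Salmonella Typhimurium SL1344 (ST) and a probiotic strain, E. coli Nissle (EcN). This made 6 groups of 3 arrays (Affymetrix Human Gene 2.1 ST), lettered A, B and C. The values are RMA levels on a log2 scale, so a difference of 1 is a doubling. The promoter driving TLR5 and the number of clones behind the line are not stated in the labels. The cells grew in media with light, medium or heavy lysine and arginine, and which array had which label is not given either, so a difference between labelled cultures and an effect of flagellin cannot be told apart. The labels call the replicates biological without saying whether a letter marks a separate culture, and p-values then measure the spread between these arrays. For the 6 ST arrays the description fields name a mock control, whereas treatment fields, source names and titles name ST. The titles were followed.

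Of 9 HEK293 marker genes with a row, 7, among them PAX2, LHX1, NEFL and VIM, lay above the array median on all 18 arrays, while PAX8 did so on none. Endothelial genes did so on all 18 arrays for 0 of 5. Of 6 leukocyte genes, CD68 and CD14 lay above the median on all 18 arrays, and PTPRC, the pan-leukocyte gene, on none. Of 6 muscle genes, ACTN2 and DES did so on all 18 arrays and MYH6 on none. Of 8 fibroblast genes, COL1A1 and LUM lay above the median on all 18 arrays and COL1A2, DCN, FAP and POSTN on none. The mean level of the fibroblast list was 2.47 to 2.57 on the ST arrays of 120 min, 2.62 to 2.71 on the mock arrays and 2.72 to 2.78 on the EcN arrays of that time. The HEK293 list had 6.15 to 6.32 with ST and 6.35 to 6.56 in mock at 120 min, and the muscle list 2.70 to 2.75 and 2.77 to 2.80. At 120 min these 3 lists were thus lower on all ST arrays than on all mock arrays, where CCN2 and CCN3 were higher, and their part in those results was not tested. Of single genes, 7.68% lay wholly below mock with ST at that time. Among the marker genes tested, limma called only LUM there at an adjusted p under 0.05. With 1 array left out in turn, LUM stayed called 6 of 18 times, with log2 fold changes from -1.2 to -0.78. Markers were also called in other comparisons. At 60 min HOXD10 was lower with ST (called 13 of 18 times with 1 array left out) and CD68 higher with EcN (4 of 18). LUM and DES were lower with ST than with EcN over the mean of both times (14 and 7 of 18). The part of these genes in the results of the members was not tested. On 5 arrays, the C arrays of all 4 flagellin groups and the A array of mock at 120 min, the NF-kB inhibitor gene NFKBIA had log2 levels of 10.15 to 10.85, against 8.09 to 8.82 on the other 13. The A and B arrays of the flagellin groups, at 8.09 to 8.43, were thus not above the remaining mock arrays, at 8.22 to 8.82. The main differences of the members are given with and without these arrays.

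YAP and TAZ are co-activators that enter the nucleus and switch on genes through TEAD factors, which bind DNA. The Hippo kinases, LATS2 among them, phosphorylate YAP and TAZ and so keep them out of the nucleus, and angiomotin-family and LIM-domain proteins modulate this step. CCN1, CCN2, ANKRD1, AMOTL2 and LATS2 are widely used readouts of YAP activity, and the latter pair act as negative feedback. CCN1 and CCN2 also respond to serum response factor, to AP-1 and to growth factor signalling.

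Promoter windows ran from 250 bases before to 50 bases after a transcript start in RefSeq's GRCh38.p14 annotation. They are given for 5 of the 7 genes, 7 windows in all, and not for CCN1 and CCN3. The windows are shown because the genes are read as TEAD targets. The search letters were GGAATG for TEAD, with both strands read. For AP-1 the letters were TGANTCA, and for EGR factors they were GCGNGGGCG. The CArG box of serum response factor and the NF-kB site were searched by name. The 250 bases before the start of 3 windows follow, 5′ to 3′ on the minus strand of the genome, with the TEAD letters in capitals. They lie at chr6:131951373-131951622 for CCN2, chr10:90921088-90921337 for ANKRD1 and chr14:22976843-22977092 for the second of the AJUBA starts.
CCN2: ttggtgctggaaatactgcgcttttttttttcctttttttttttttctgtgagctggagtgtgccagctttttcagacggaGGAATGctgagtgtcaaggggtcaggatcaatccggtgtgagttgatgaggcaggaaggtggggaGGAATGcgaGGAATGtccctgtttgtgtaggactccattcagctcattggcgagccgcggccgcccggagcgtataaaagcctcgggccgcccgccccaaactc
ANKRD1: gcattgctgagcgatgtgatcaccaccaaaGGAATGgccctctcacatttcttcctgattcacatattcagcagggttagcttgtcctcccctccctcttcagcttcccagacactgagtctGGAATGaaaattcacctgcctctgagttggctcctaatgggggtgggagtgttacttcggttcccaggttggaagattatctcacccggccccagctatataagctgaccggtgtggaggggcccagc
AJUBA: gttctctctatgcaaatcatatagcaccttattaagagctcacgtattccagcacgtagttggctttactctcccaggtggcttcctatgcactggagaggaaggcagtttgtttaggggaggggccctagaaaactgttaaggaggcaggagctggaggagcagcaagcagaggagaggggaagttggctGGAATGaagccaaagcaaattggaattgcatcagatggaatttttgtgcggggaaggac
CCN2 had 3 TEAD matches, whose first bases lay at -169, -104 and -95 from the start, and the match nearest the start overlapped a match to the NF-kB site. Of 35116 windows in the annotation, 14% held at least 1 TEAD match and 0.128% held 3 or more. ANKRD1 had 2 TEAD matches and an AP-1 match, a motif found in 7.71% of windows. AMOTL2 and AJUBA each had 1 TEAD match, in the second of their windows, and LATS2 had 1 after its start. AMOTL2 also had an NF-kB match, a motif in 11.3% of windows. No window of these genes held the EGR letters, present in 9.43% of all windows, or a CArG box, present in 1.29%. A match is a description of the letters and shows no binding.

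With ST flagellin at 120 min, CCN3 rose and AJUBA fell against mock, and CCN2 was higher on every array without passing the test. These were the only members called in any comparison with mock. Across all genes, limma called 0.559% in this comparison at an adjusted p under 0.05. A group lay wholly above its comparison group for 8.81% of all genes, and wholly below it for 7.68%. Among the 7 genes the median log2 fold change was 0.34, against 0 over all genes.

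**Figure D1:**
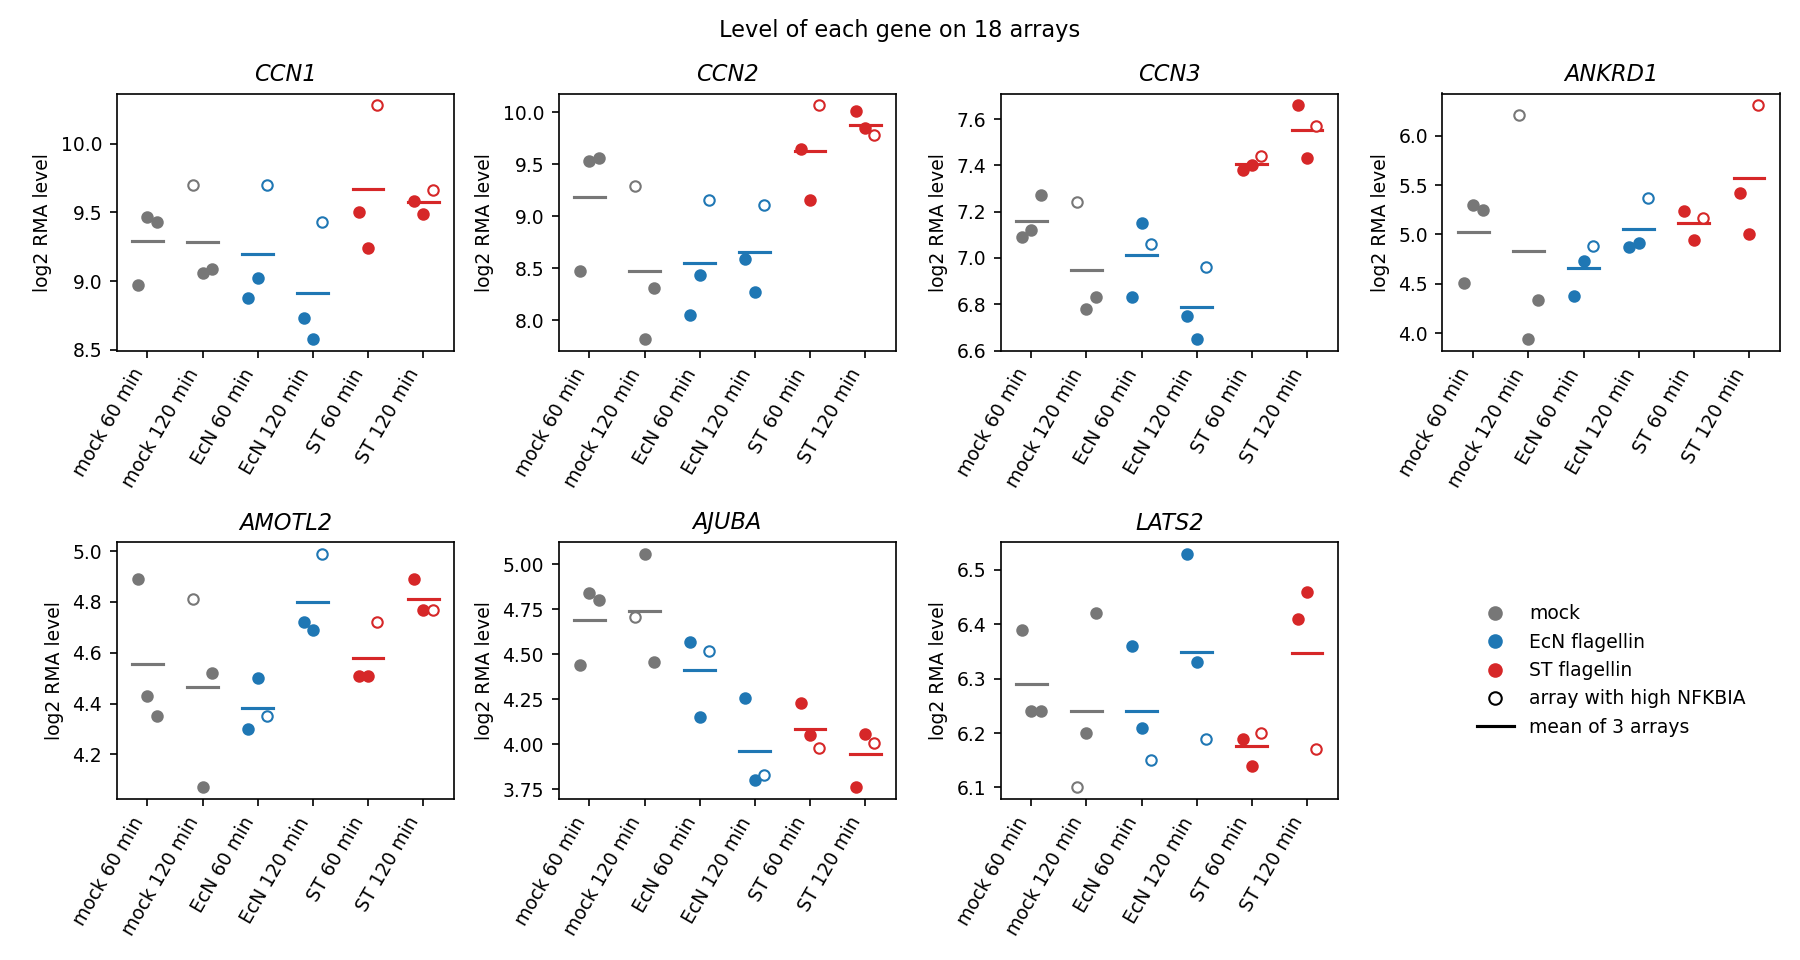
Log2 RMA level (y axis) of each of the 7 genes on every array, by treatment and time (x axis), with points for arrays, open points for the arrays high in NFKBIA and lines for group means. The 3 ST arrays of 120 min lie above all mock arrays of that time for CCN2 and CCN3 and below them for AJUBA.

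CCN3 encodes a matricellular protein that, unlike its relatives CCN1 and CCN2, is mostly known for restraining growth. Its log2 levels at 120 min were 7.24, 6.78 and 6.83 in mock (A, B and C), and 7.66, 7.43 and 7.57 with ST. Every ST array lay above every mock array. The difference was 0.60 ± 0.13 (log2 fold change ± SE; 1.52-fold; 95% interval 0.33 to 0.87; limma adjusted p = 0.0459). With EcN at 120 min the levels were 6.75, 6.65 and 6.96, within or just below the mock range, and the difference from mock was -0.16 ± 0.13 (limma adjusted p = 0.549). At 60 min the mock levels were 7.09, 7.12 and 7.27, those with EcN 6.83, 7.15 and 7.06, and those with ST 7.38, 7.40 and 7.44. The ST arrays again lay above the mock arrays, as they did for 14.2% of all genes in this comparison, but the difference of 0.24 ± 0.13 did not pass (limma adjusted p = 0.276). Group means were ordered ST at 120 min (7.55 ± 0.11, SD, n = 3), ST at 60 min (7.41 ± 0.03), mock at 60 min (7.16 ± 0.10), EcN at 60 min (7.01 ± 0.16), mock at 120 min (6.95 ± 0.26) and EcN at 120 min (6.79 ± 0.16). Of neighbours in that order, only ST and mock at 60 min had ranges that did not overlap.

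CCN2 encodes connective tissue growth factor, a matricellular protein that promotes matrix production. Its log2 levels in mock at 120 min were 9.29, 7.82 and 8.31, a spread of more than a doubling, and those with ST were 10.01, 9.85 and 9.78. All ST arrays were above all mock arrays. The log2 fold change was 1.41 ± 0.38 (2.66-fold; 95% interval 0.61 to 2.21), the largest in size among the 7 genes here, but it missed the threshold (limma adjusted p = 0.0889). The mock A array, one of those high in NFKBIA, set much of the mock spread. Without that array the difference was 1.82 (limma adjusted p = 0.0153), and without all 5 arrays high in NFKBIA it was 1.87 (limma adjusted p = 0.0393). These were the only 2 of 29 alternative settings in which CCN2 passed. Over all 29 its size lay between 1.08 and 1.87, with a limma adjusted p from 0.0153 to 0.431. With EcN at 120 min the levels were 8.59, 8.27 and 9.11, which overlapped mock, and the difference from mock was 0.18 ± 0.38. At 60 min the levels were 8.47, 9.53 and 9.56 in mock, 8.05, 8.44 and 9.16 with EcN and 9.65, 9.16 and 10.07 with ST. Neither flagellin differed from mock beyond the spread at 60 min, with -0.63 ± 0.38 for EcN and 0.44 ± 0.38 for ST. ST at 120 min had the highest mean (9.88 ± 0.12, SD, n = 3) and mock at 120 min the lowest (8.47 ± 0.75), and the ranges of all neighbours in the order overlapped.

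CCN1 encodes CYR61, an immediate-early matricellular protein that binds integrins. At 120 min its log2 levels were 9.70, 9.06 and 9.09 in mock, 8.73, 8.58 and 9.43 with EcN and 9.58, 9.49 and 9.66 with ST. At 60 min they were 8.97, 9.47 and 9.43 in mock, 8.88, 9.02 and 9.70 with EcN and 9.50, 9.24 and 10.28 with ST. The mock ranges overlapped both flagellins at both times. The differences from mock were 0.29 ± 0.28 for ST and -0.37 ± 0.28 for EcN at 120 min (limma adjusted p = 0.638 and 0.538). Without the 5 arrays high in NFKBIA they were 0.46 and -0.42 (limma adjusted p = 0.183 and 0.328). At 60 min CCN1 differed from mock by 0.38 ± 0.28 with ST, and by 0.08 without these arrays. The level was highest on ST arrays at 60 min (9.67 ± 0.54, SD, n = 3) and lowest on EcN arrays at 120 min (8.91 ± 0.45). Among neighbours in the order only ST at 120 min (9.58 ± 0.09) and mock at 60 min (9.29 ± 0.28) had separate ranges.

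ANKRD1 encodes a cardiac ankyrin repeat protein that acts in the nucleus and at the sarcomere. Its log2 levels in mock at 120 min were 6.21, 3.94 and 4.34, the widest spread of any member in a group, and those with ST were 5.42, 5.00 and 6.31. The groups overlapped through the mock A array alone. The difference was 0.75 ± 0.44 (limma adjusted p = 0.4) with that array and 1.44 (limma adjusted p = 0.0209) without it. Without all 5 arrays high in NFKBIA it was 1.07 (limma adjusted p = 0.0725), and without the 6 C arrays it was 0.14 (limma adjusted p = 0.926). The remaining groups lay between 4.38 and 5.37, and their ranges overlapped with each other except for ST and EcN at 60 min. By mean the order ran from ST at 120 min (5.58 ± 0.67, SD, n = 3) to EcN at 60 min (4.66 ± 0.25), and no neighbours in it had separate ranges.

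AJUBA encodes a LIM-domain scaffold that can hold back the LATS kinases. Its log2 levels at 120 min were 4.71, 5.06 and 4.46 in mock, 4.26, 3.80 and 3.83 with EcN and 3.76, 4.06 and 4.01 with ST. All 6 flagellin arrays lay below the 3 mock arrays. Against mock, AJUBA fell with ST by 0.80 ± 0.17 on the log2 scale (1.74-fold lower; 95% interval -1.17 to -0.44; limma adjusted p = 0.0481). With EcN the log2 fold change was -0.78 ± 0.17 (1.72-fold lower; 95% interval -1.15 to -0.42), which missed the threshold (limma adjusted p = 0.0756) in a comparison with 0.0621% of genes called and 9.11% with EcN wholly below mock. ST and EcN differed from each other by -0.02 ± 0.17 at 120 min (95% interval -0.38 to 0.35), an interval that does not show that they act alike. The comparisons of ST and of EcN with mock share the mock arrays.

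At 60 min AJUBA levels were 4.44, 4.84 and 4.80 in mock, 4.57, 4.15 and 4.52 with EcN and 4.23, 4.05 and 3.98 with ST. The ST arrays lay below the mock arrays, as for 15.9% of all genes, and the EcN arrays overlapped them. The ST difference of -0.61 ± 0.17 (1.52-fold lower) fell just short of the threshold (limma adjusted p = 0.0517; 5.26% of all genes called). The EcN difference was -0.28 ± 0.17 (limma adjusted p = 0.333; 6.45% of all genes called). The group means of AJUBA were ordered mock at 120 min (4.75 ± 0.30, SD, n = 3), mock at 60 min (4.69 ± 0.22), EcN at 60 min (4.41 ± 0.23), ST at 60 min (4.09 ± 0.13), EcN at 120 min (3.96 ± 0.26) and ST at 120 min (3.94 ± 0.16), and the ranges of neighbours overlapped throughout. No member was called by limma at 60 min, and AJUBA with ST was the 1 member with an unadjusted p under 0.05. The counts of all called genes rested on single arrays. At 60 min they were 1039 for EcN and 848 for ST with every array, and 0 to 1859 and 79 to 1367 with 1 array left out. At 120 min they were 10 and 90, and 0 to 1182 and 0 to 905 with 1 left out. EcN at 60 min had 0 called genes without its B array and 7 or 3 without mock B or C of 60 min. Without the 5 arrays high in NFKBIA the AJUBA differences were -0.55 for ST at 60 min and -0.73 for EcN at 120 min (limma adjusted p = 0.17 and 0.255).

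AMOTL2 encodes an angiomotin-like protein that tethers YAP at cell junctions, and LATS2 one of the kinases that phosphorylate YAP. AMOTL2 had log2 levels of 4.81, 4.07 and 4.52 in mock at 120 min, 4.72, 4.69 and 4.99 with EcN and 4.89, 4.77 and 4.77 with ST. The differences from mock were nearly the same with both flagellins, 0.33 ± 0.17 for EcN and 0.34 ± 0.17 for ST (limma adjusted p = 0.331 and 0.302). Without the 5 arrays high in NFKBIA they were 0.41 and 0.54 (limma adjusted p = 0.376 and 0.166). At 60 min, with all arrays, they were -0.17 ± 0.17 and 0.02 ± 0.17. ST at 120 min had the highest mean (4.81 ± 0.07, SD, n = 3) and EcN at 60 min the lowest (4.38 ± 0.11), with overlapping ranges between all neighbours in the order. All AMOTL2 values lay within 0.92 of each other on the log2 scale. LATS2 varied least, with a range of 0.44 over the 18 arrays, and its differences from mock lay between -0.12 and 0.11. Its means ran from 6.35 ± 0.18 with EcN at 120 min to 6.17 ± 0.03 with ST at 60 min (SD, n = 3), and again all neighbours overlapped. Its ST arrays at 60 min (6.19, 6.14 and 6.20) all lay below the mock arrays (6.39, 6.24 and 6.24), with the nearest arrays at 6.20 and 6.24. The same held for 15.9% of all genes in that comparison, and the LATS2 difference was -0.12 ± 0.11 (limma adjusted p = 0.601).

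**Figure D2:**
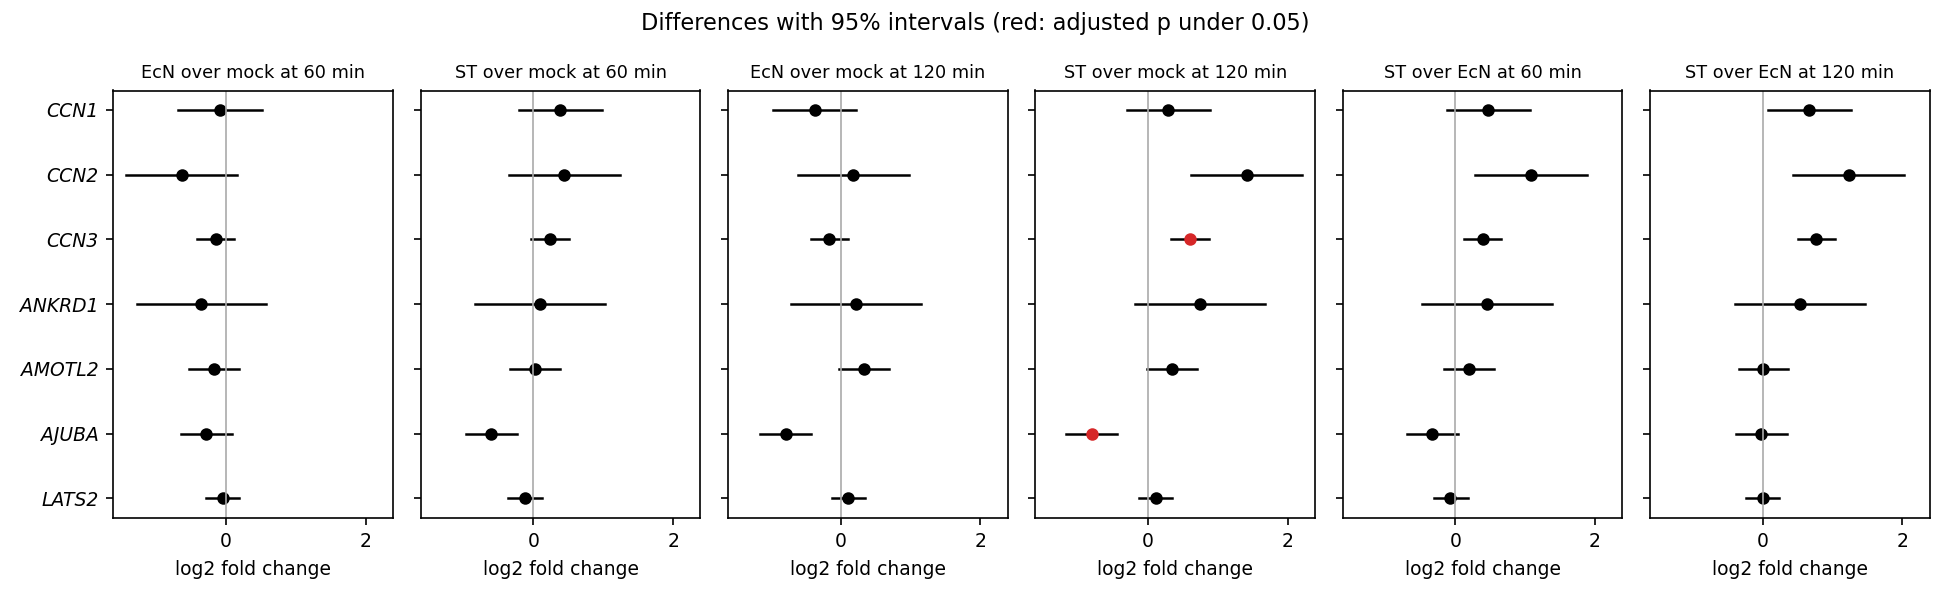
Log2 fold changes (x axis) of the 7 genes (y axis) in the 6 comparisons between treatments, with 95% intervals as bars and red for an adjusted p under 0.05. CCN3 (0.60) and AJUBA (-0.80) are called with ST against mock at 120 min, and the 3 CCN genes lie to the right of 0 in ST against EcN at both times.

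Both calls were narrow. Left out 1 at a time over the 18 arrays, CCN3 stayed called without 3 of them and AJUBA without 5. Neither gene was called without mock B or C of 60 min, mock B of 120 min, EcN C of 60 min, EcN B or C of 120 min, or any single ST array of either time. AJUBA alone was called without mock A or EcN B of 60 min or EcN A of 120 min, and CCN3 alone without EcN A of 60 min. The sizes moved less, from 0.52 to 0.75 for CCN3 and from -0.98 to -0.64 for AJUBA over all 29 alternative settings, with adjusted p from 0.00717 to 0.354 for CCN3 and from 0.0137 to 0.354 for AJUBA. Without the 5 arrays high in NFKBIA the values were 0.74 for CCN3 (limma adjusted p = 0.0393) and -0.85 for AJUBA (limma adjusted p = 0.0961). The arrays left out thus ended the calls through p, and kept both directions.

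The flagellins were also compared directly. The mock levels do not enter these differences, but the mock arrays share in the estimate of the spread behind each SE and p. At 60 and at 120 min limma called 0 of 16111 genes (0%) between ST and EcN, with 1481 and 1882 genes at an unadjusted p under 0.05. At 120 min the ST arrays lay above all EcN arrays for CCN1, CCN2 and CCN3, as they did for 10.5% of all genes. CCN3 differed by 0.77 ± 0.13 (1.7-fold; 95% interval 0.50 to 1.04; limma adjusted p = 0.0888). CCN2 differed by 1.23 ± 0.38 (95% interval 0.43 to 2.02; limma adjusted p = 0.258) and CCN1 by 0.67 ± 0.28 (95% interval 0.07 to 1.26; limma adjusted p = 0.377). None of the 3 passed the threshold. Without the 5 arrays high in NFKBIA the differences were 0.84 for CCN3 and 1.51 for CCN2 (limma adjusted p = 0.144 and 0.198). Without mock A of 120 min alone, CCN3 was called at an unchanged 0.77 (limma adjusted p = 0.0192). At 60 min CCN2, CCN3, ANKRD1 and AMOTL2 were higher on all ST arrays than on all EcN arrays, as were 8.14% of all genes, with the nearest CCN2 arrays both at 9.16. The largest of these differences was 1.08 ± 0.38 for CCN2 (95% interval 0.28 to 1.88; limma adjusted p = 0.426), and that of CCN3 was 0.39 ± 0.13 (limma adjusted p = 0.399).

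The mean of both times was compared as well. This was added after ST was seen above EcN for the CCN genes at both times on these same arrays, so its p-values restate that observation and are no independent evidence. LATS2 and AJUBA had no such order, with -0.07 and -0.33 at 60 min. CCN3 was higher with ST than with EcN by 0.58 ± 0.09 (1.49-fold; 95% interval 0.39 to 0.77; limma adjusted p = 0.0139), in a comparison with 0.59% of all genes called. The 6 ST arrays, 7.38 to 7.66, all lay above the 6 EcN arrays, 6.65 to 7.15, as for 1.24% of all genes. CCN2 also had separate ranges, with 9.16 the highest EcN level, on the C array of 60 min, and the lowest ST level, on the B array of 60 min, equal to it at 2 decimals. The CCN2 difference was 1.15 ± 0.27 (2.22-fold; 95% interval 0.59 to 1.72; limma adjusted p = 0.0608). CCN1 had 0.57 ± 0.20 (1.48-fold; limma adjusted p = 0.174) with overlapping ranges. The other 4 genes had smaller differences, 0.49 ± 0.31 for ANKRD1, 0.10 ± 0.12 for AMOTL2, -0.17 ± 0.12 for AJUBA and -0.03 ± 0.08 for LATS2. The interval for AJUBA, -0.43 to 0.09, pools both times and does not show that ST and EcN act alike. At 60 min alone the AJUBA interval was -0.69 to 0.04. The CCN3 call ended without EcN B of 120 min (limma adjusted p = 0.0597), ST C of 60 min (0.0604), ST C of 120 min (0.0552) or all 6 C arrays (0.211), while its size stayed between 0.53 and 0.62. Without the 5 arrays high in NFKBIA, CCN3 had 0.62 and CCN2 1.33 (limma adjusted p = 0.0332 and 0.0503). Without mock A of 120 min CCN2 passed as well (limma adjusted p = 0.0173).

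From 60 to 120 min, limma called 0% of genes within mock, EcN or ST (1950, 1281 and 773 at an unadjusted p under 0.05), and 0% for the change of either flagellin's effect (1936 for EcN and 1731 for ST). The counts of 0 for mock over time and for both changes of effect rested on the mock A array of 120 min, which is high in NFKBIA. Without it limma called 980 genes for mock over time, 556 for the change of the EcN effect and 474 for that of the ST effect, and without all 5 arrays high in NFKBIA 829, 232 and 117. None of the 7 genes was among those called. Among the members, CCN2 had the largest change within mock, -0.71 ± 0.38 (95% interval -1.51 to 0.08; limma adjusted p = 0.455). Without mock A of 120 min it was -1.12 (limma adjusted p = 0.0823), and without the 5 arrays high in NFKBIA also -1.12 (limma adjusted p = 0.0562). With EcN, AMOTL2 changed by 0.41 ± 0.17 and AJUBA by -0.45 ± 0.17 (limma adjusted p = 0.556 and 0.544). The ST effect on CCN2 was 0.97 ± 0.53 larger at 120 than at 60 min (95% interval -0.16 to 2.09; limma adjusted p = 0.518), and that on CCN3 0.36 ± 0.18 larger (95% interval -0.02 to 0.74; limma adjusted p = 0.483). Without mock A of 120 min these changes were 1.38 for CCN2 and 0.51 for CCN3 (limma adjusted p = 0.13 and 0.0886), and that of ANKRD1 was 1.34 (limma adjusted p = 0.0921). None passed the threshold.

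The arrays high in NFKBIA were also high in several of these genes. CCN1 was highest of its group on that array in 5 of 5 groups, which held for 1.45% of all genes, by 0.75 and 0.77 with EcN at 60 and 120 min, 0.91 and 0.13 with ST, and 0.63 in mock at 120 min over the mean of the other arrays. CCN2 and ANKRD1 were highest in 4 of 5 groups each, as were 6.82% of all genes in at least 4. For ANKRD1 the excess reached 2.07 in mock at 120 min, and for CCN2 it reached 1.23 there. The CCN3 excess was 0.44 in mock and 0.26 with EcN at 120 min, and 0.03 to 0.07 in the remaining groups. That of AMOTL2 ran from -0.06 to 0.52. LATS2 ran the other way and was lowest in 4 of 5, as were 11.5% of all genes in at least 4, by at most 0.26. For AJUBA the level minus the mean of the other arrays ran from -0.2 to 0.16. The immediate-early gene EGR1 had log2 levels of 11.40 and 11.52 on the C arrays of EcN and ST at 60 min, against 10.33 to 10.78 on the other arrays of these groups, and FOS had 7.80 and 7.97 against 6.30 to 6.67. In mock at 120 min, however, EGR1 was 9.80 on the A array, below 10.84 and 10.99 on the others. The part of these arrays' state in the results was not tested beyond leaving the arrays out.

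**Figure D3:**
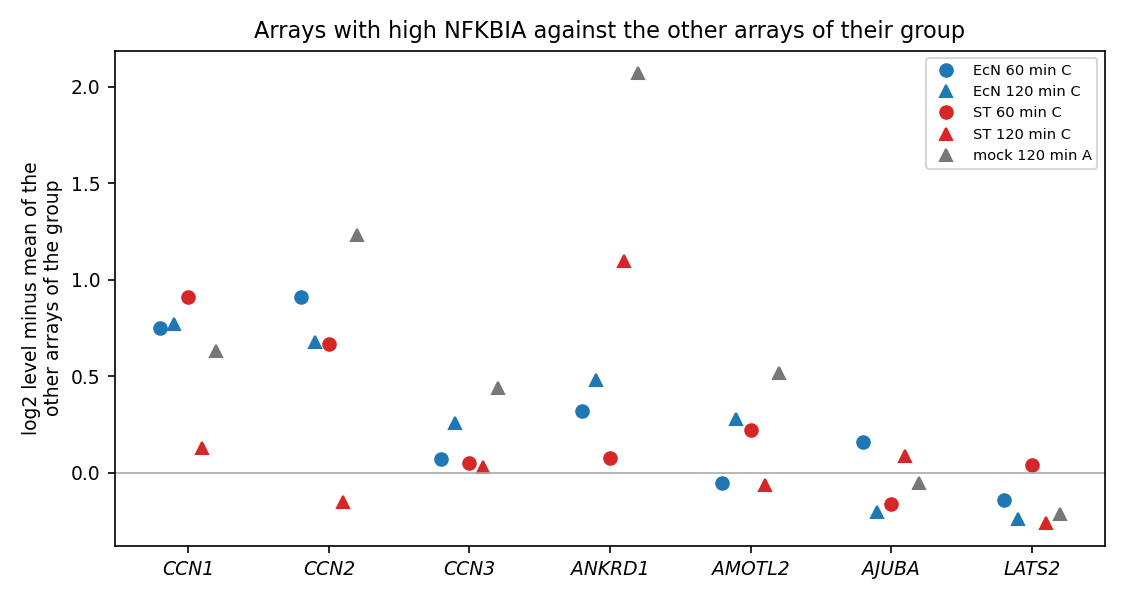
Log2 level on the array high in NFKBIA minus the mean of the other arrays of its group (y axis) for each gene (x axis), with 1 point for each of 5 groups. All 5 points of CCN1 lie above 0, the ANKRD1 point of mock at 120 min reaches 2.07, and the AJUBA points lie near 0.

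Across the 18 arrays the CCN genes varied together. The log2 levels of CCN1 and CCN2 had a Pearson r of 0.82, and 0.89 after group means were removed. CCN2 and CCN3 had 0.86 and 0.75, CCN1 and CCN3 0.73 and 0.64, and CCN2 and ANKRD1 0.72 and 0.73. AMOTL2 and AJUBA had -0.69 and -0.68, so the arrays with more AMOTL2 had less AJUBA. CCN2 and AJUBA, the genes with the largest differences from mock under ST, had only -0.34 and 0.02, so within groups they did not move together. These correlations describe 18 arrays that share groups and array-wide normalization.

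**Figure D4:**
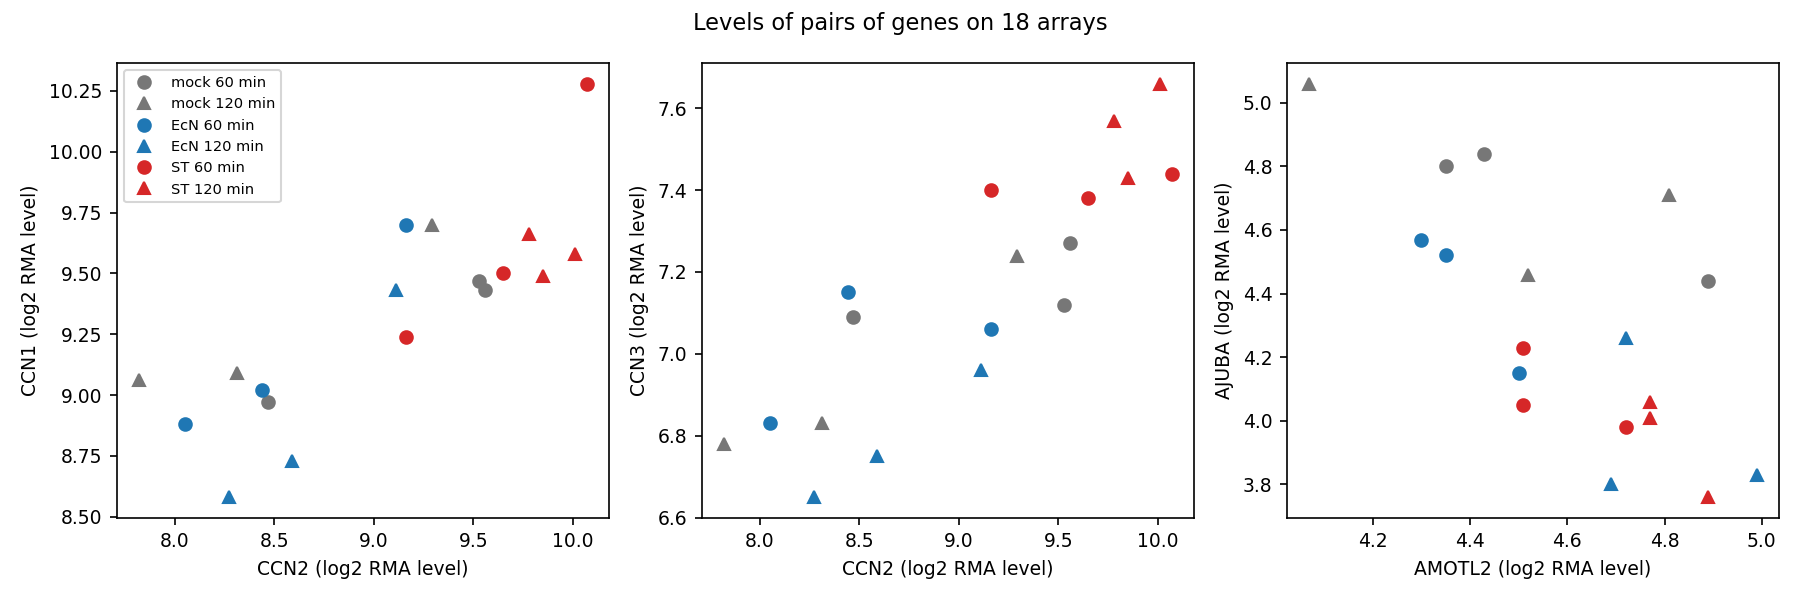
Log2 levels of CCN1 against CCN2, CCN3 against CCN2 and AJUBA against AMOTL2, with 1 point per array coloured by treatment and shaped by time. The ST arrays gather at the upper right of the CCN panels, where r is 0.82 and 0.86, and the AJUBA panel slopes down with r of -0.69.

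Genes outside the set whose levels were most like each member's over the 18 arrays were taken as the 3 with the highest Pearson r. For CCN1 they were DUSP1, a phosphatase gene of MAP kinase feedback (0.88), MIR221 and MUS81 (both 0.85). CCN2 had LCMT2 (0.92), SRRT (0.88) and RRP9 (0.87), and CCN3 had RRP9 (0.95), PQBP1 (0.91) and SURF2 (0.89). RRP9, a ribosome biogenesis factor, was thus near both CCN2 and CCN3. Each gene named for CCN2 or CCN3 had a higher r with it than the 0.86 of CCN2 with CCN3. ANKRD1 was most like UTP25 (0.89), NFKB1, an NF-kB subunit gene (0.88), and ACTBL2 (0.87). AMOTL2 had TCOF1 (0.88), LINC00863 (0.87) and PIAS4 (0.84), AJUBA had PHC1, TRAPPC11 and SPG21 (all 0.89), and LATS2 had NR1D2 (0.81), ILDR2 (0.76) and ZNF284 (0.74). The highest of so many correlations are high by selection, and no p is given.

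The wider pathway showed few calls. For reference, the shares of all genes at an unadjusted p under 0.05 were 12.7% higher and 12.2% lower with EcN at 60 min, 10.2% and 12.3% with ST at 60 min, 8.24% and 8.28% with EcN at 120 min, and 8.99% and 8.57% with ST at 120 min. Counts of list genes at that threshold are to be read against these shares. CCN5, the other CCN family gene tested, had differences from mock of 0.18, 0.02, -0.12 and -0.07 (EcN and ST at 60 min, then at 120 min), while CCN4 and CCN6 did not pass the filter. Of the list of Hippo kinases and their activators, 15 genes were tested. Among them LATS1, the partner of LATS2, fell at 60 min with EcN by 0.39 ± 0.11 on the log2 scale (limma adjusted p = 0.0475). With ST at 60 min LATS1 fell by 0.40 ± 0.11 (limma adjusted p = 0.0474). TAOK3, a kinase upstream of the Hippo kinases, rose with EcN at 60 min by 0.44 ± 0.12 (limma adjusted p = 0.0429). With 1 of the 18 arrays left out in turn, LATS1 stayed called 5 times with EcN and 4 times with ST, and TAOK3 5 times. At 120 min limma called 0 of the 15, with LATS1 at 0.07 ± 0.11 and 0.04 ± 0.11. At an unadjusted p under 0.05, 3 were higher with EcN at that time, and 2 were higher and 1 lower with ST. Of 7 YAP, TAZ and TEAD genes limma called 0 in any comparison with mock, and at an unadjusted p under 0.05 at most 2 were lower and 1 higher in any of them. YAP1 itself was at 0.35 ± 0.15 with EcN and 0.48 ± 0.15 with ST at 60 min (limma adjusted p = 0.169 and 0.0792), and TEAD3 at -0.43 ± 0.12 with ST at 120 min (limma adjusted p = 0.0986). Of 6 angiomotin and LIM-domain genes tested, limma called only AJUBA, with ST at 120 min, where their median was 0.06. At an unadjusted p under 0.05, 0 were higher and 1 lower there, and 2 higher and 1 lower with ST at 60 min. With EcN 1 was higher at 60 min, and 1 was higher and 1 lower at 120 min.

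Of 16 other YAP target genes tested, GADD45A, a growth arrest and stress gene, rose at 60 min with EcN by 0.76 ± 0.19 and with ST by 1.03 ± 0.19 (limma adjusted p = 0.0304 and 0.0132). PTPN14, a phosphatase gene whose product binds YAP, fell with ST at 60 min by 0.33 ± 0.09 (limma adjusted p = 0.045). With 1 array left out in turn, GADD45A stayed called 12 of 18 times with EcN and 17 of 18 with ST, where it was lost without mock B of 60 min (limma adjusted p = 0.051), and PTPN14 stayed called 4 times. At 120 min limma called 0 of the 16 with either flagellin. With ST their median was -0.11, with 4 lower and 1 higher at an unadjusted p under 0.05, and with EcN 1 was lower and 1 higher. MYOF, a membrane repair gene counted among YAP targets, was lower with ST than with EcN over both times by a log2 difference of -0.87 ± 0.14 (limma adjusted p = 0.0139), opposite in direction to CCN3. This call was lost without ST C of 60 min (limma adjusted p = 0.0604). Serum response factor and MRTF targets had 0 of 14 tested genes called by limma with either flagellin, with medians from -0.20 to -0.03. At an unadjusted p under 0.05 that list had 5 genes lower and 1 higher with EcN at 120 min, 2 lower and 1 higher with ST at 120 min, and 1 lower with each flagellin at 60 min. Of 11 receptors of CCN proteins, the integrin genes ITGA5 and ITGB5 rose with EcN at 60 min, by 0.54 ± 0.13 and 0.57 ± 0.17 (limma adjusted p = 0.0282 and 0.0498). In this comparison 6 of the 11 were higher at an unadjusted p under 0.05. ITGA5 stayed called 13 of 18 times and ITGB5 4 of 18 with 1 array left out. Every call named for EcN at 60 min ended without mock B, mock C or any 1 EcN array of 60 min. These were LATS1, TAOK3, GADD45A, ITGA5, ITGB5 and the marker gene CD68. In the other comparisons with mock limma called 0 of the 11, and at an unadjusted p under 0.05 there were 1 higher with ST at 60 min, 2 higher with EcN at 120 min and 1 lower with ST at 120 min. The receptor list's median was 0.40 with EcN and 0.15 with ST at 60 min, against 0.01 and 0 over all genes.

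**Figure D5:**
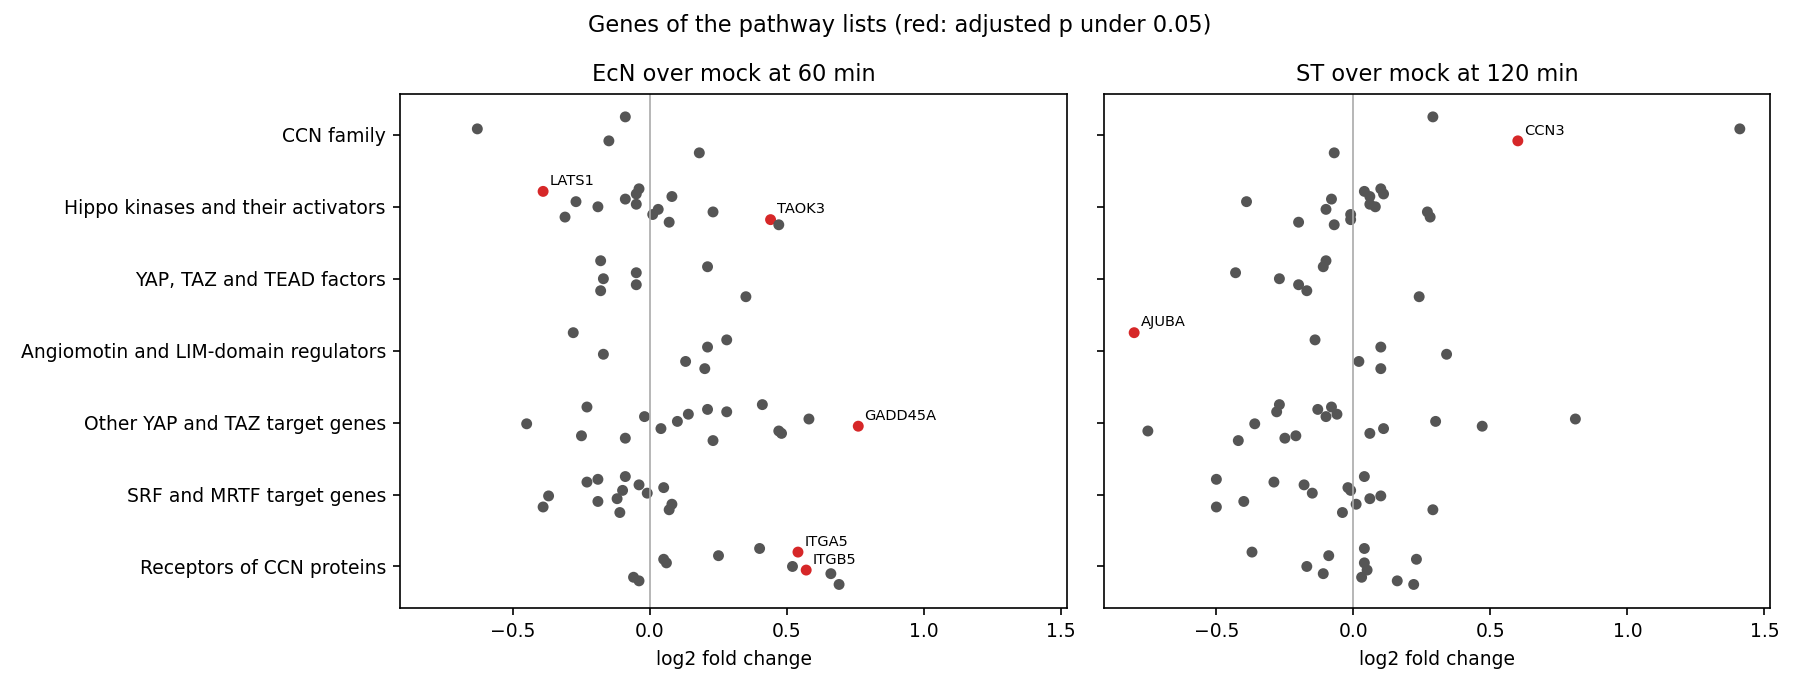
Log2 fold changes (x axis) of all tested genes of 7 pathway lists (y axis), 1 point per gene, with EcN against mock at 60 min on the left and ST against mock at 120 min on the right. Red points have an adjusted p under 0.05: LATS1, TAOK3, GADD45A, ITGA5 and ITGB5 on the left, CCN3 and AJUBA on the right.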

How the data were processed

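The deposited table holds log2 values of 53617 rows on 18 arrays, which the authors made with RMA in oligo 1.30.0, per the submitters' processing notes. RMA scales all arrays to 1 distribution, so a shift shared by all genes would not be seen. The values, from 0.17 to 13.62, were used as deposited, and array medians lay between 2.27 and 2.32. The genome build and annotation behind the array are not given in the labels. The platform's annotation gave 1 symbol to 23871 rows, several to 1842 and none to 27904 rows that it did not list. RefSeq's gene table of GRCh38.p14 updated 655 symbols.

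Rows with 1 symbol that lay above their array's median on at least 3 of 18 arrays were kept, with the row of highest mean for each gene (16111 genes). Tests used limma 3.58.1 under R 4.3.3 (lmFit and eBayes, 6 group means, 12 residual and 4.2 prior degrees of freedom). The tests were two-sided, with Benjamini-Hochberg adjustment over all genes tested, and a gene was called at an adjusted p under 0.05. The 11 comparisons were each flagellin with mock, ST with EcN, each treatment over time and the change of each flagellin's effect, and 1 was added after the data were seen. The fit was tested on simulated data with independent noise for each gene and array. Such data hold no differences shared by whole arrays, so the dependence on single arrays was not tested there. Precision is limited by 3 arrays per group.

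Named were the 7 members in every comparison, up to 4 called genes of each of 7 lists, the 3 genes most like each member, and NFKBIA, EGR1 and FOS by array. The members and lists were chosen with earlier results of these data known, so counts of called members describe these arrays and are no independent support. Alternatives were median centring, quantile normalization, other filters, the mean of a gene's rows, limma's trend, robust and array weight settings, a replicate block, only the groups compared, and each array left out. Leaving out the 5 arrays high in NFKBIA or the 6 C arrays, and arrays for the list genes, was added after the data were seen.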

Additional observations from a re-analysis of the deposited data

Results flagged for a closer look

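CCN3 was 0.58 higher on the log2 scale with ST than with EcN flagellin over the mean of both times, with a limma adjusted p of 0.0139 for the difference between the treatments (SE 0.09, higher on all 6 ST arrays than on all 6 EcN arrays). The comparison was added after this order was seen on the same arrays, so the p is no independent evidence of it. The mock levels cancel from the difference, but the mock arrays enter its SE and p, and without mock A of 120 min the adjusted p was 0.00359. Over 29 alternative settings the limma adjusted p ran from 0.00266 to 0.211 and was under 0.05 in 25. The call ended without EcN B of 120 min, ST C of either time or all 6 C arrays.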

How the results depend on the processing

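Under the 29 alternatives to each comparison, limma called 0 of the 7 genes in EcN against mock at 60 min, ST against EcN at 60 min, the changes over time and the changes of effect. Of 2436 recomputed differences, 19 moved by at least the gene's SD within groups. Differences called in the main fit never changed sign. Some that were not called did, such as CCN1 with EcN against mock at 60 min, which ran from -0.34 to 0.07. For ST against mock at 120 min the 2 calls became 1, AJUBA, when arrays were centred on their medians, and 0 with quantile normalization, with no filter on low values, with only the groups compared, without the 6 C arrays, or with the replicate block (CCN3 0.60, limma adjusted p = 0.0549, and AJUBA -0.80, limma adjusted p = 0.067). Without 1 array at a time there were 0 to 4 calls, the highest without mock A of 120 min (CCN2, CCN3, ANKRD1 and AJUBA). The count over all 16111 genes was 90 with every array and 0 to 905 with 1 array left out.

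For ST against mock at 60 min the count rose from 0 to 1, AJUBA, with quantile normalization, a filter 1 above the array median, trend and robust settings or array weights, and was 0 to 1 without single arrays. For EcN against mock at 120 min it was 1, AJUBA, with trend and robust settings and 0 to 1 without single arrays. For ST against EcN at 120 min it was 1, CCN3, with trend and robust settings or array weights and 0 to 1 without single arrays. For the mean of both times the 1 call, CCN3, became 2, with CCN2, under the stricter filter, array weights or only the groups compared, 0 without the 6 C arrays, and 0 to 2 without single arrays. Except where fewer arrays or other genes entered, the cause was not tested.

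Deviations from group means of same-lettered arrays had correlations from -0.24 to 0.27 (45 pairs, median 0.04), and those of other arrays from -0.22 to 0.34 (90 pairs). These correlations showed no pairing by letter, but they cannot show that the arrays were unpaired, as the labels do not say what a letter marks. In every flagellin group the array high in NFKBIA was the C array, so the letters were not without structure. The replicate block changed no member's call outside the comparison of ST with mock at the later time.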
